A study of Mus musculus with 9 samples.

Results

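Heme oxygenase and iron handling genes were examined in the mouse retina. The 10 genes were chosen by symbol, with earlier results of these data known. They comprise Hmox1, Hmox2 and Blvrb of heme degradation, the ferritin subunits Fth1 and Ftl1, Tfrc, Trf and Slc11a2 of iron uptake, and Slc40a1 and Cp of iron export. Each symbol matched 1 row of the 54532 rows of the gene count table, and all 10 were among the 17540 genes that passed the filter on low counts. RNA-Seq had been performed on neurosensory retina at postnatal day 17 (P17) from 9 wild-type C57BL/6 mice, 3 per group, in a study of 32-134D, a small molecule that blocks HIF-1 and HIF-2, the transcription factors of the hypoxic response. Control mice were kept in room air. OIR mice went through oxygen-induced retinopathy, a model in which pups are placed in high oxygen, lose part of the retinal capillary bed, and are then returned to room air, where the poorly perfused retina becomes hypoxic. They received the DMSO vehicle by intraocular injection at P12. OIR+32-134D mice went through the same exposure and received 1 intraocular injection of 32-134D at P12, given as 70 ng in the sample labels and as a concentration of 70 ng per μl in the study. The labels also name DMSO for the control group, without saying how it was given. All the OIR mice of both groups had been injected, so exposure and injection differ together from room air unless the controls were injected too.

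Heme oxygenases open the heme ring and release iron, carbon monoxide and biliverdin, and biliverdin reductases turn biliverdin into bilirubin. Hmox1 is the inducible enzyme, repressed by BACH1 and switched on by oxidative stress and heme, whereas Hmox2 is made at a steady level in neurons. Free iron is stored in ferritin shells or leaves the cell through ferroportin, and it is taken up as transferrin bound to its receptor. Much of this system is set after transcription: the iron regulatory proteins bind a stem-loop, the iron-responsive element, which blocks translation when it lies in the 5′ UTR and protects the message when it lies in the 3′ UTR. Hmox1, Tfrc, Trf and Cp have each been described as HIF target genes. In the retina, iron is taken up from the blood and moved between Müller glia, photoreceptors and the pigment epithelium, and an excess of it damages photoreceptors.

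The element's core was sought in the annotated transcripts of the 10 genes, since it divides them into ferritin and exporter messages on one side and the receptor message on the other. The core searched was a bulged C, 5 bases, a loop of CAGTGN whose last base was A, C or T, and 5 bases that pair with the first 5 (G-T pairs allowed), 17 bases in all on the sense strand. It was found in a UTR of 4 of the 10 genes. All positions are on GRCm38, and the 6 loop bases are in capitals.
Fth1, 5′ UTR, chr19:9982738-9982754, plus strand: cttcaaCAGTGCttgaa
Ftl1, 5′ UTR, chr7:45459785-45459801, minus strand: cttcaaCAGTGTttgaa
Slc40a1, 5′ UTR, chr1:45925471-45925487, minus strand: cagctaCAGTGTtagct
Tfrc, 3′ UTR, chr16:32631225-32631241, plus strand: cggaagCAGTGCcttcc
Tfrc, 3′ UTR, chr16:32631604-32631620, plus strand: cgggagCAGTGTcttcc
Tfrc, 3′ UTR, chr16:32631669-32631685, plus strand: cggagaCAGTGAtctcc
Tfrc, 3′ UTR, chr16:32631716-32631732, plus strand: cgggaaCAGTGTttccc

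Fth1, Ftl1 and Slc40a1 each held 1 core in the 5′ UTR, and Tfrc held 4 cores within its 3′ UTR. Among all annotated genes, the same letters occurred in the 5′ UTR of 23 of 20916 genes (0.11%) and in the 3′ UTR of 100 of 21045 genes (0.475%). A match describes the sequence and is not a measured binding site, and these libraries measure RNA level and not translation. The pattern allows no other stem or loop, so a gene without a match, such as Slc11a2, may still hold an element.

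The libraries held 16028731 to 27213184 counts. Rod photoreceptor markers summed to 36131 to 67985 counts per 1000000 (CPM) in every library, as retina requires. Lens crystallins took 15.8% of the counts of OIR+32-134D mouse 2 and at most 0.186% of the other 8 libraries. That library stands apart, and some of the fits that rest on it, but not all, are also given without it. By Xist and Y-linked genes, control mouse 1, OIR mouse 3, and OIR+32-134D mice 2 and 5 were female and the other 5 were male, so sex was not balanced across groups. In bulk retina, fewer cells of a type and less RNA per cell cannot be told apart.

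Hmox1 (ENSMUSG00000005413; chr8:75093621-75100589), the inducible heme oxygenase, varied more between mice of a group than nearly any other gene. It was at 22.9, 11.3 and 4.51 CPM in control mice 1, 6 and 7, at 27.2, 130 and 471 CPM in OIR mice 3, 5 and 6, and at 277, 12.9 and 9.56 CPM in OIR+32-134D mice 2, 5 and 10. All 3 OIR mice lay above all 3 controls, but OIR mouse 3 did so by little. Among OIR+32-134D mice, 1 was at the level of the high OIR mice and the other 2 lay within the control range. The highest mouse exceeded the lowest by 5.08-fold among controls, 17.3-fold among OIR mice and 29.0-fold among OIR+32-134D mice. On the scale of log2 fold change, edgeR gave 4.0 ± 1.48 (SE, n = 3 per group) for OIR against control, with an adjusted p of 0.149. For OIR+32-134D against control it was 2.93 ± 1.41 (edgeR adjusted p = 0.3), and for OIR+32-134D against OIR it was -1.07 ± 1.31 (edgeR adjusted p = 1). Without OIR+32-134D mouse 2, these last values became -0.24 ± 0.997 (edgeR adjusted p = 0.932) and -4.20 ± 1.13 (edgeR adjusted p = 0.204). Without OIR mouse 6, the difference between OIR+32-134D and OIR was 0.34, so single mice set both its size and its sign.

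Hmox2 (ENSMUSG00000004070; chr16:4726361-4766742), the constitutive heme oxygenase, was by contrast among the steadiest genes. It was at 43.7, 45.6 and 46.8 CPM in control mice 1, 6 and 7, at 37.9, 32.9 and 33.7 CPM in OIR mice 3, 5 and 6, and at 35.5, 38.6 and 37.7 CPM in OIR+32-134D mice 2, 5 and 10. Every mouse of both OIR groups lay below every control, and the 2 OIR groups overlapped. edgeR put the log2 fold change at -0.38 ± 0.09 (SE) for OIR against control (edgeR adjusted p = 0.0721) and -0.28 ± 0.09 for OIR+32-134D against control (edgeR adjusted p = 0.192). Hmox2 overlaps Cdip1 on the opposite strand, which had 26416 counts over the 9 libraries against 6981 for Hmox2. Whether the counting used strand is not given in the sources used here, so reads of these genes may be mixed.

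Compared per length, the ratio between the heme oxygenases turned over in 3 mice. In CPM per kilobase of gene length (RPKM), the Hmox1 level was 0.122 to 0.664 times that of Hmox2 in controls. It was 0.910, 5.02 and 17.7 times in OIR mice 3, 5 and 6, and 9.87, 0.422 and 0.321 times in OIR+32-134D mice 2, 5 and 10. Hmox1 was thus the more abundant message in OIR mice 5 and 6 and in OIR+32-134D mouse 2.

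Blvrb (ENSMUSG00000040466; chr7:27447978-27466144), a biliverdin and flavin reductase, was low and followed the same mice. It was at 7.61, 6.24 and 4.13 CPM in control mice 1, 6 and 7, at 6.84, 10.4 and 15.7 CPM in OIR mice 3, 5 and 6, and at 13.9, 4.48 and 5.65 CPM in OIR+32-134D mice 2, 5 and 10. The highest values belonged to the 3 mice with the highest Hmox1, and all pairs of groups overlapped. For OIR against control the log2 fold change was 0.86 ± 0.47 (SE; edgeR adjusted p = 0.292).

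**Figure D1:**
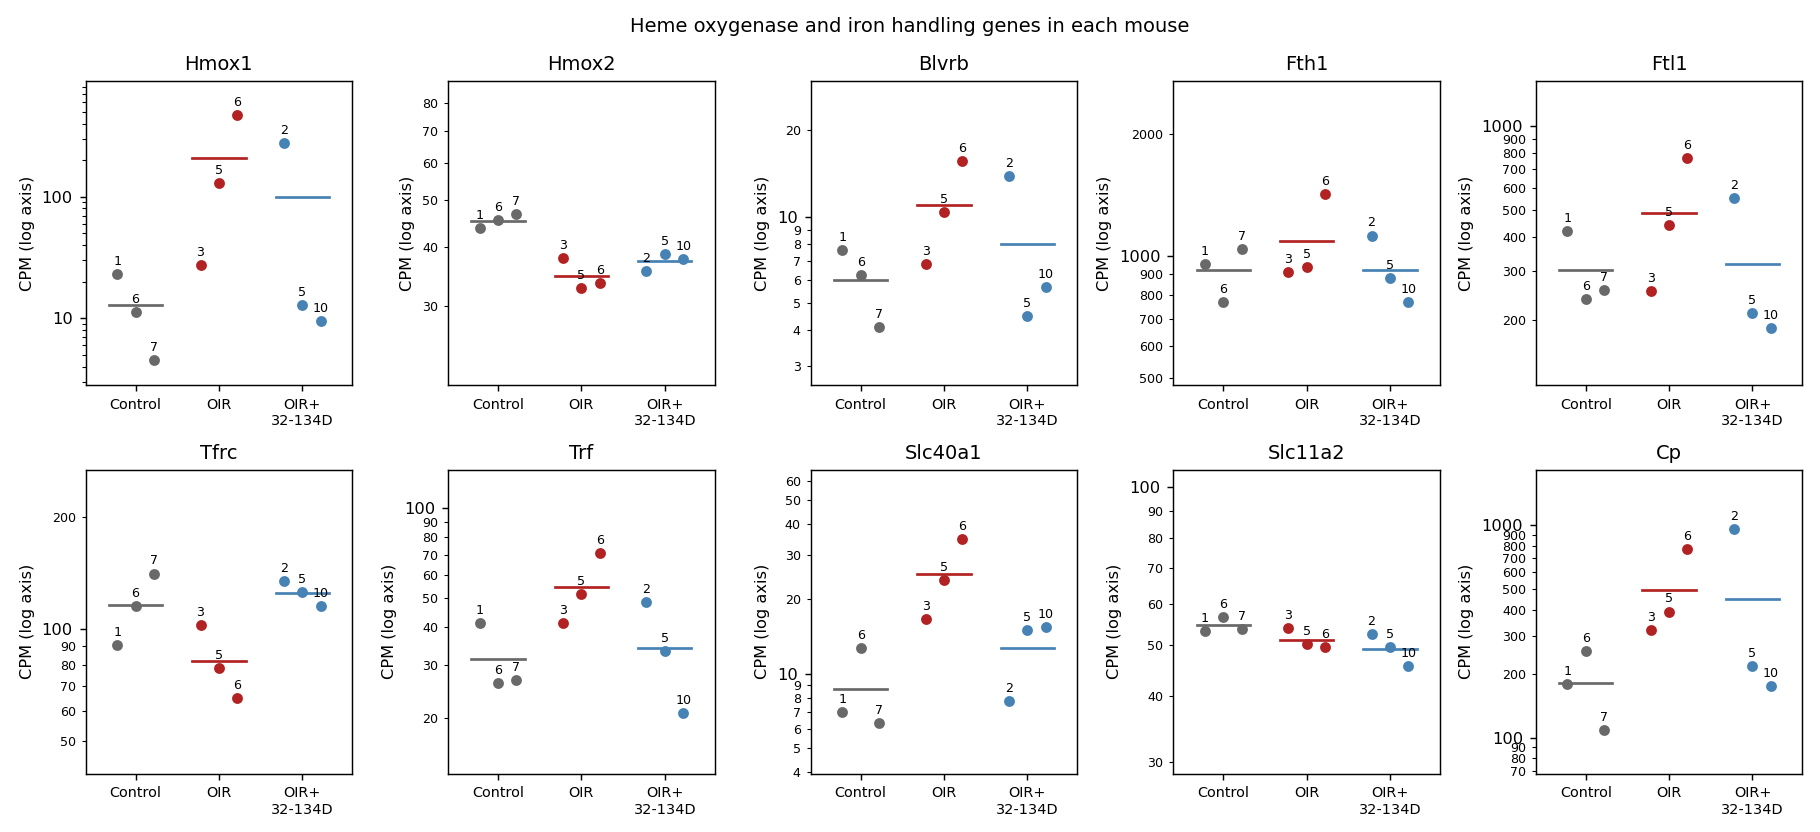
Each panel plots the CPM (log axis, scaled per gene) of 1 gene in 9 mice; points are mice labelled with their number, and bars are group means of 3 mice. Hmox1 ran from 4.51 to 471 CPM with OIR mice 5 and 6 and OIR+32-134D mouse 2 highest, whereas Hmox2 and Slc11a2 hardly varied and Slc40a1 was higher in each OIR mouse than in any other.

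Ferritin made up the most abundant messages of the set. Fth1 (ENSMUSG00000024661; chr19:9982703-9985092), the heavy subunit that oxidizes iron, was at 887 to 1639 RPKM over the 9 mice, and Ftl1 (ENSMUSG00000050708; chr7:45457944-45459884), the light subunit of the shell, at 139 to 571 RPKM. By mouse, Fth1 was at 953, 768 and 1038 CPM in control mice 1, 6 and 7, at 913, 939 and 1419 CPM in OIR mice 3, 5 and 6, and at 1122, 881 and 769.8 CPM in OIR+32-134D mice 2, 5 and 10. OIR mouse 6 alone lay above all others, and every pair of groups overlapped. Its log2 fold change was 0.25 ± 0.22 (SE) for OIR against control and -0.24 ± 0.22 for OIR+32-134D against OIR, with edgeR adjusted p of 0.53 and 1.

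Ftl1 moved over a wider range than Fth1. It was at 417, 237 and 256 CPM in control mice 1, 6 and 7, at 254, 439 and 766 CPM in OIR mice 3, 5 and 6, and at 553, 213 and 187 CPM in OIR+32-134D mice 2, 5 and 10. OIR mouse 6, OIR+32-134D mouse 2, OIR mouse 5 and control mouse 1 were the highest, so the groups overlapped. The log2 fold change was 0.68 ± 0.49 (SE) for OIR against control and -0.62 ± 0.49 for OIR+32-134D against OIR (edgeR adjusted p = 0.438 and 1). Without OIR+32-134D mouse 2 the second was -1.25 ± 0.42 (edgeR adjusted p = 0.253). Taken as RPKM, the light subunit was at 0.160 to 0.283 times the heavy subunit in controls. OIR mice 3, 5 and 6 had ratios of 0.180, 0.302 and 0.349, whereas OIR+32-134D mice 2, 5 and 10 had ratios of 0.318, 0.156 and 0.157. The annotated copy Ftl1-ps1 carried 1449 counts over the 9 libraries against 67726 for Ftl1, and reads shared between the copies may have been split. The other annotated ferritin copies had at most 49 counts each, and the Fth1 copy Fth-ps2 had 38.

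Among the iron uptake genes, Tfrc and Slc11a2 took other courses than Hmox1, whereas Trf was highest in the same mice. Tfrc (ENSMUSG00000022797; chr16:32608920-32632794), the transferrin receptor, was at 90.6, 115 and 141 CPM in control mice 1, 6 and 7, at 102, 78.5 and 65.2 CPM in OIR mice 3, 5 and 6, and at 135, 125 and 115 CPM in OIR+32-134D mice 2, 5 and 10. OIR mice lay below all OIR+32-134D mice, and OIR mouse 3 overlapped the controls. Its log2 fold change was -0.50 ± 0.19 (SE) for OIR against control (edgeR adjusted p = 0.165) and 0.61 ± 0.19 for OIR+32-134D against OIR (edgeR adjusted p = 0.984). Between OIR+32-134D and control it was 0.11 ± 0.19 (edgeR adjusted p = 0.774).

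Trf (ENSMUSG00000032554; chr9:103204001-103230444), the iron carrier transferrin, was at 41.4, 26.1 and 26.6 CPM in control mice 1, 6 and 7, at 41.4, 51.9 and 70.9 CPM in OIR mice 3, 5 and 6, and at 48.7, 33.3 and 20.8 CPM in OIR+32-134D mice 2, 5 and 10. OIR mouse 3 and control mouse 1 were practically equal, the OIR mouse being higher only in further decimals. The remaining OIR mice were higher than every control. OIR mice 5 and 6 and OIR+32-134D mouse 2 held the highest values, as for Hmox1. The log2 fold change was 0.80 ± 0.32 (SE) for OIR against control (edgeR adjusted p = 0.177) and -0.68 ± 0.32 for OIR+32-134D against OIR (edgeR adjusted p = 1).

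Slc11a2 (ENSMUSG00000023030; chr15:100387898-100425072), the divalent metal transporter DMT1 that carries iron out of endosomes, stayed between 45.6 and 56.7 CPM in all 9 mice. Controls were at 53.3, 56.7 and 53.7 CPM in mice 1, 6 and 7, OIR mice at 53.9, 50.3 and 49.6 CPM in mice 3, 5 and 6, and OIR+32-134D mice at 52.5, 49.6 and 45.6 CPM in mice 2, 5 and 10. All OIR+32-134D mice lay below all controls by a small margin, with a log2 fold change of -0.15 ± 0.09 (SE, edgeR adjusted p = 0.38). For OIR against control it was -0.09 ± 0.09 (edgeR adjusted p = 0.566).

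The exporter and its ferroxidase differed in how far single mice set their values. Slc40a1 (ENSMUSG00000025993; chr1:45908068-45926523), ferroportin, the iron exporter, was at 7.02, 12.7 and 6.32 CPM in control mice 1, 6 and 7, at 16.6, 23.9 and 35.0 CPM in OIR mice 3, 5 and 6, and at 7.74, 15.0 and 15.5 CPM in OIR+32-134D mice 2, 5 and 10. Every OIR mouse lay above every other mouse, and the OIR+32-134D mice overlapped the controls. Unlike Hmox1, it was low in OIR+32-134D mouse 2. The fitted difference on the log2 scale was 1.54 ± 0.38 (SE) for OIR against control (edgeR adjusted p = 0.0737), a 2.90-fold difference. It was -0.98 ± 0.38 for OIR+32-134D against OIR (edgeR adjusted p = 1) and 0.56 ± 0.38 for OIR+32-134D against control (edgeR adjusted p = 0.449). The direction of each of these held under all 16 alternative settings and left-out mice.

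Cp (ENSMUSG00000003617; chr3:19957054-20009145), ceruloplasmin, a copper ferroxidase that loads exported iron onto transferrin, was at 179, 256 and 108 CPM in control mice 1, 6 and 7, at 322, 392 and 772 CPM in OIR mice 3, 5 and 6, and at 957, 216 and 174 CPM in OIR+32-134D mice 2, 5 and 10. OIR mice lay above all controls, whereas OIR+32-134D mouse 2 was the highest of all and the other 2 of its group lay within the control range. The fitted difference on the log2 scale was 1.45 ± 0.65 (SE) for OIR against control (edgeR adjusted p = 0.217), 1.31 ± 0.65 for OIR+32-134D against control and -0.14 ± 0.64 for OIR+32-134D against OIR (edgeR adjusted p = 0.311 and 1). Without OIR+32-134D mouse 2, the last 2 values were 0.11 ± 0.40 and -1.32 ± 0.42 (edgeR adjusted p = 0.921 and 0.244). Cp overlaps Hps3 on the opposite strand, which had 7002 counts against 65557 for Cp.

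**Figure D2:**
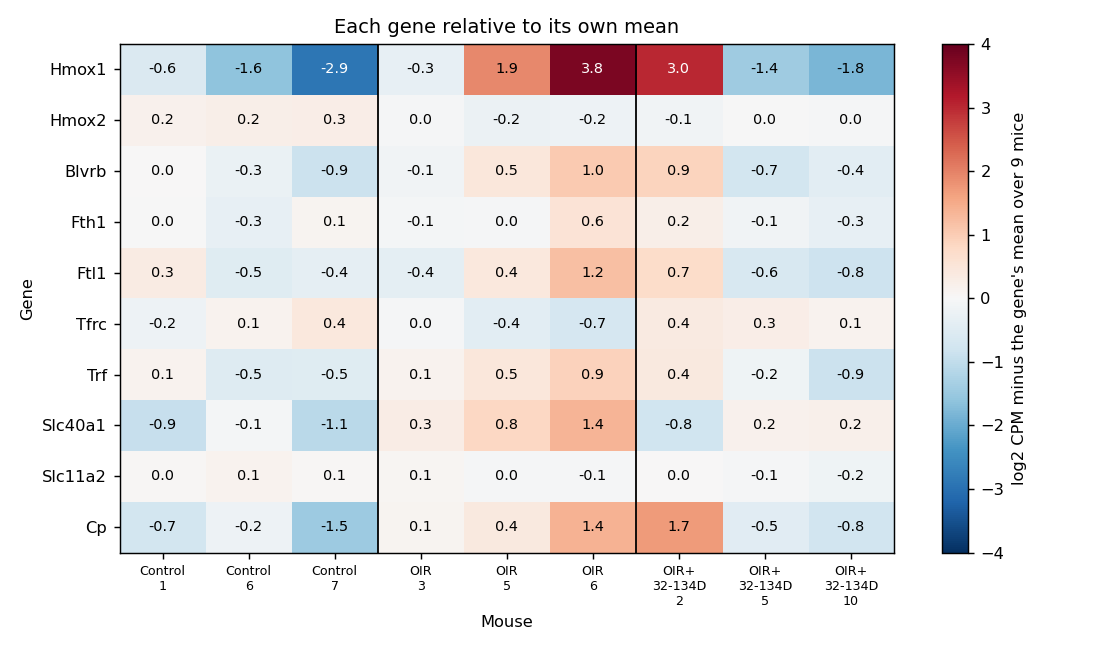
Rows are the 10 genes and columns the 9 mice by group; color and printed value give log2 CPM (prior count 2) minus the gene's mean over the mice. Hmox1, Blvrb, Ftl1, Trf and Cp were high in OIR mice 5 and 6 and in OIR+32-134D mouse 2, and Slc40a1 was high in the OIR group and low in that mouse.

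None of the 10 genes passed edgeR at an adjusted p below 0.05 in OIR against control, where 0.941% of all tested genes did. Nor did any in OIR+32-134D against control (0.0228% of all genes) or in OIR+32-134D against OIR (0% of all genes). At an unadjusted p below 0.05, 3 genes were higher (Hmox1, Trf, Slc40a1; 11.1% of all genes) and 2 lower (Hmox2, Tfrc; 12.7% of all genes) in OIR than in control. In OIR+32-134D against control 1 was lower (Hmox2; 8.6% of all genes) and 0 were higher (10% of all genes), and against OIR 1 was higher (Tfrc; 2.39% of all genes) and 1 lower (Slc40a1; 2.3% of all genes). The mice of OIR and control did not overlap for 4 genes that were higher (Hmox1, Trf, Slc40a1, Cp) and 1 that was lower (Hmox2), where 15.9% and 17.2% of all genes did so. Between OIR+32-134D and control, 2 genes were lower without overlap (Hmox2, Slc11a2; 12.2% of all genes) and none higher (12.8%). Between OIR+32-134D and OIR, 1 was higher (Tfrc; 3.74%) and 1 lower (Slc40a1; 5.39%). The median log2 fold change of the 10 genes was 0.74 for OIR against control, 0.12 for OIR+32-134D against control and -0.35 for OIR+32-134D against OIR, with medians over all genes of 0.03, 0.01 and 0.01. The first of these comparisons shares its control mice with the second and its OIR mice with the third, which share the OIR+32-134D mice. Since the 10 genes were chosen with earlier results known, the shares and medians over all genes are no test of the list.

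Which genes were called in OIR against control differed with the mice and the tool that entered the fit. DESeq2 fitted to the OIR and control mice alone called 5 of the 10 genes, among 16.2% of all genes: Hmox1, Trf, Slc40a1 and Cp rose, and Hmox2 fell. In that fit the log2 fold change of Slc40a1 was 1.53 ± 0.33 (SE, DESeq2 adjusted p = 7.65e-05) and that of Hmox1 was 4.01 ± 1.15 (DESeq2 adjusted p = 0.00539). With OIR+32-134D mouse 2 left out, edgeR called Hmox1, Hmox2, Slc40a1 and Cp, among 12.5% of all genes, with an adjusted p of 0.0156 for Slc40a1. Among the other settings, edgeR on these groups alone called 3 (10.3% of all genes), limma-voom 2 (13.1%) and edgeR with no filter on low counts 1 (1.75%). Across all alternatives the adjusted p for OIR against control ran from 7.65e-05 to 0.232 for Slc40a1, from 0.00539 to 0.394 for Hmox1, from 0.0209 to 0.238 for Hmox2 and from 0.0348 to 0.505 for Cp, and the highest of each was found without OIR mouse 6. No alternative called any of the 10 genes in the other 2 comparisons. In OIR+32-134D against control and against OIR, DESeq2 called 2.38% and 0.454% of all genes, and edgeR without OIR+32-134D mouse 2 called 0.0166% and 0%. DESeq2 gave no p for Hmox1 in OIR+32-134D against control.

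**Figure D3:**
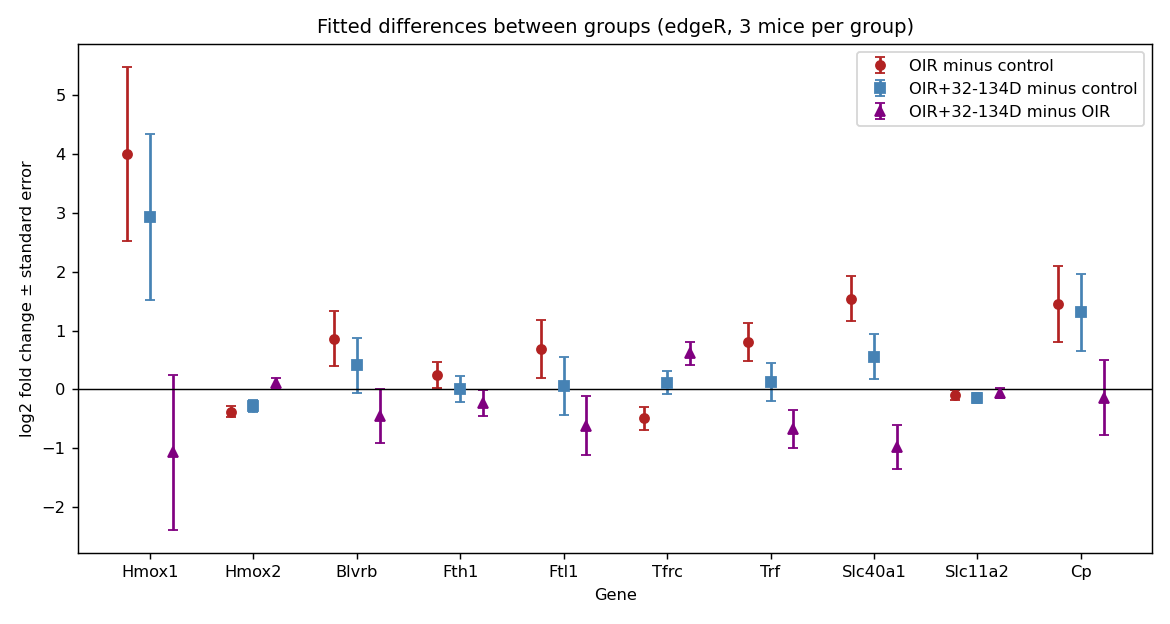
Points give the edgeR log2 fold change of each gene and bars its standard error, with 3 mice per group; circles are OIR minus control, squares OIR+32-134D minus control and triangles OIR+32-134D minus OIR. Hmox1 had the longest bars (SE 1.31 to 1.48), Slc40a1 stood at 1.54 and -0.98, and Tfrc at -0.50 and 0.61.

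Markers of other cells moved along with some of these genes. The 5 astrocyte and gliosis markers summed to 326 to 809 CPM in controls, 837 to 1484 CPM in OIR mice and 529 to 1528 CPM in OIR+32-134D mice, with the highest sums in OIR mouse 6 and OIR+32-134D mouse 2, the mice highest in Hmox1 and Cp. In OIR+32-134D mouse 2, Gfap, Vim and Nes were at 398, 1071 and 52.1 CPM, above every control. Pax2 there was at 1.21 CPM, within the control range, and S100b at 5.52 CPM, the lowest of all mice. The 12 microglia and macrophage markers summed to 795, 227 and 94.6 CPM in control mice 1, 6 and 7, to 289, 517 and 955 CPM in OIR mice 3, 5 and 6, and to 242, 118 and 115 CPM in OIR+32-134D mice 2, 5 and 10. All 12 had a lower fitted level in OIR+32-134D than in OIR, 9 of them with no overlap, where 5.39% of all genes were lower without overlap. In that comparison Slc40a1 was lower and Tfrc higher. Control mouse 1 combined a high sum of these markers with a low Slc40a1 level. Lyz2 alone was at 387 CPM in that mouse and at 528 CPM in OIR mouse 6. Cx3cr1 was at 25.2 and 23.3 CPM in control mice 1 and 6, so the markers did not move together. Of the 12, 11 had a higher fitted level in OIR than in control, 1 without overlap (15.9% of all genes). Tmem119 was lower without overlap (17.2% of all genes). The 8 Müller glia markers summed to 6697 to 7386 CPM in controls, 8181 to 10464 CPM in OIR mice and 4752 to 6689 CPM in OIR+32-134D mice. Of these 8, 2 were higher without overlap in OIR than in control (15.9% of all genes) and Rlbp1 had a lower fitted level. All 8 had a lower fitted level in OIR+32-134D than in OIR, 3 of them without overlap (5.39% of all genes). Apoe, which macrophages also express, made up 1631 to 2954 CPM of the sum in controls and 2948 to 4861 CPM in OIR mice. The 11 inner retinal neuron markers summed to 1962 to 2513 CPM in controls, 1474 to 1752 CPM in OIR mice and 1199 to 1949 CPM in OIR+32-134D mice, lower in both OIR groups than in controls, as Hmox2 was. Of the 11, 6 were lower and 3 higher without overlap in OIR than in control, beside 17.2% and 15.9% of all genes. The 7 red blood cell markers summed to 74.8 to 133 CPM in controls, 9.49 to 58.2 CPM in OIR mice and 54.0 to 169 CPM in OIR+32-134D mice, and OIR mouse 6, the highest in Hmox1, had the lowest sum. Lens markers summed to 128359 CPM in OIR+32-134D mouse 2 and to 13.7 to 1002 CPM elsewhere, and OIR mice 5 and 6 reached high Hmox1 levels with lens sums of 274 and 56.4 CPM. No marker of these lists was at 0 in all mice, and the part of these cells in the differences was not tested.

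**Figure D4:**
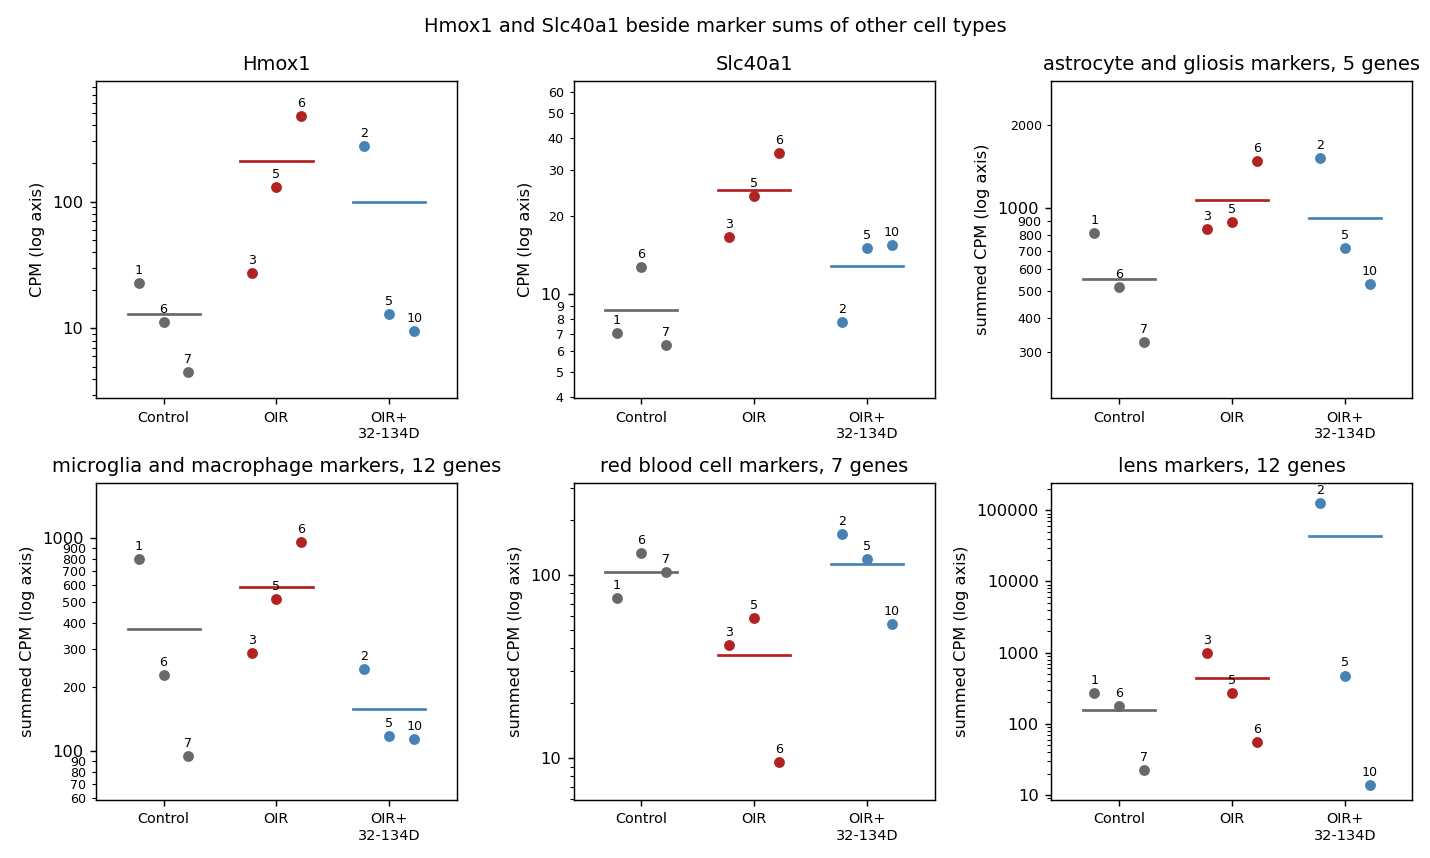
Panels plot the CPM of Hmox1 and Slc40a1 and the summed CPM of 4 marker lists in each mouse on log axes; numbers are mice and bars are means of 3 mice. The sum of gliosis markers was highest in OIR mouse 6 and OIR+32-134D mouse 2, that of lens markers was high in the latter alone, and that of red blood cell markers was lowest in OIR mouse 6.

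Because sex was uneven across groups, differences were also taken within each sex. Against control mice of the same sex, Hmox1 was higher by 0.25 log2 CPM in the female OIR mouse (1 against 1) and by 5.09 log2 CPM in the males (2 against 2). The Hmox1 difference for OIR+32-134D against OIR was 1.13 in females (2 against 1) and -4.68 in males (1 against 2). The female was the lowest OIR mouse in Hmox1, whereas females were the highest among controls and among OIR+32-134D mice. For OIR against control, Ftl1 differed by -0.72 in the female and 1.23 in the males, Tfrc by 0.17 and -0.83, and Cp by 0.85 and 1.72. Slc40a1 differed by 1.23 in the female and by 1.68 in the males, and in OIR+32-134D against OIR by -0.62 in females and -0.90 in males. With 1 female in 2 of the groups these are values with no test. With sex as a covariate, edgeR gave Hmox1 4.54 ± 1.73 (SE, adjusted p = 0.19) and Slc40a1 1.5 ± 0.33 (adjusted p = 0.0958) for OIR against control.

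The spread between mice of the same group separated the genes further. The pooled within-group SD of log2 CPM was 2.06 for Hmox1, larger than in 99.6% of 13978 genes, whose median was 0.209. It was 0.93 for Cp (larger than in 96.3%), 0.72 for Ftl1 (92.9%), 0.65 for Blvrb (91.1%), 0.54 for Slc40a1 (87.2%) and 0.47 for Trf (83.7%). Fth1 and Tfrc, at 0.29 and 0.27, lay nearer the median. Hmox2 at 0.078 and Slc11a2 at 0.075 varied less than nearly all genes, with smaller SDs in only 3.48% and 2.73% of genes.

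The genes whose pattern over the 9 mice lay nearest to each member were ranked by the root mean square difference of centred log2 CPM. For Hmox1 these were Arg1 (0.74), Socs3 (0.75), Edn2 (0.83), Bcl3 (0.85) and Fgf2os (0.87). Socs3, a suppressor of cytokine signalling, was at 5.60 to 15.8 CPM except in OIR mice 5 and 6 and OIR+32-134D mouse 2, where it was at 38.1, 113 and 126 CPM. For Cp the nearest were Notch1 (0.22), Ehf (0.23), Aldh1a1 (0.24), Chrnb4 (0.25) and Kremen1 (0.27). For Slc40a1 they were Chrdl1 (0.33), Fbln7 (0.34), Selenop (0.35), Gm7694 (0.35) and Syt15 (0.35), and Selenop, a selenium carrier protein, was at 92.5 to 143 CPM in OIR mice and at 33.8 to 61.1 CPM in the other mice. For Ftl1 they were its copy Ftl1-ps1 (0.13), Prph (0.17), Tmem176b (0.18), Cd63 (0.20) and Il17ra (0.21), and for Blvrb Tst (0.086), Tmem176a (0.16), Tmem176b (0.17), Inf2 (0.19) and Vamp5 (0.19). For Trf they were H2-D1 (0.12), Irf9 (0.17), Adamtsl4 (0.18), Fxyd1 (0.18) and Inf2 (0.19), and for Tfrc Dgat2 (0.12), Cdh4 (0.14), Slc2a3 (0.15), Gm12592 (0.15) and Reep1 (0.15). Hmox2, Fth1 and Slc11a2 varied too little for such a ranking.

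A wider list of 70 symbols of heme and iron metabolism had 67 in the table, of which 60 passed the filter. In OIR against control 2 of the 60 rose and none fell by edgeR, and 8 were higher and 10 lower at an unadjusted p below 0.05. The shares among all genes were 0.941% for the calls, and 11.1% higher and 12.7% lower at the unadjusted threshold. In the comparisons of OIR+32-134D with control and with OIR none passed, with 6 higher and 8 lower, and 1 higher and 1 lower, at an unadjusted p below 0.05, beside 10% and 8.6%, and 2.39% and 2.3%, of all genes. The list's median log2 fold change was -0.01, -0.03 and -0.09 in the 3 comparisons, beside 0.03, 0.01 and 0.01 for all genes.

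Heph, hephaestin, a membrane ferroxidase that works beside ferroportin, was at 12.2, 16.9 and 12.6 CPM in control mice 1, 6 and 7, at 23.6, 26.99 and 31.9 CPM in OIR mice 3, 5 and 6, and at 18.1, 20.8 and 18.1 CPM in OIR+32-134D mice 2, 5 and 10. The 3 groups did not overlap. It rose by 0.98 ± 0.17 on the log2 scale (SE) in OIR against control (edgeR adjusted p = 0.0462), and the difference was -0.53 ± 0.17 for OIR+32-134D against OIR (edgeR adjusted p = 0.99). Bach1, the heme-binding repressor of Hmox1, was at 22.2, 21.005 and 21.5 CPM in control mice 1, 6 and 7, at 36.4, 31.0 and 37.1 CPM in OIR mice 3, 5 and 6, and at 31.4, 31.8 and 29.3 CPM in OIR+32-134D mice 2, 5 and 10. Both OIR groups lay above the controls and overlapped each other. It rose by 0.69 ± 0.11 on the log2 scale in OIR against control (edgeR adjusted p = 0.0407), and in OIR+32-134D against control the difference was 0.52 ± 0.11 (edgeR adjusted p = 0.106). Both calls were close to the threshold: across alternatives the adjusted p ran from 7.92e-05 to 0.18 for Heph and from 0.000288 to 0.163 for Bach1, with every difference positive.

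Other iron genes differed without overlap but did not pass the adjusted test in edgeR on all mice. Slc25a37, mitoferrin, the mitochondrial iron importer, was at 45.3, 32.7 and 21.02 CPM in control mice 1, 6 and 7, at 53.6, 91.8 and 106 CPM in OIR mice 3, 5 and 6, and at 138, 41.2 and 34.2 CPM in OIR+32-134D mice 2, 5 and 10, again highest in OIR+32-134D mouse 2. Its log2 fold change was 1.34 ± 0.53 (SE) for OIR against control (edgeR adjusted p = 0.17), and it was called in that comparison by DESeq2 (adjusted p = 9.13e-05), by edgeR on the 2 groups, by limma-voom and without OIR+32-134D mouse 2, with a highest adjusted p of 0.39 over all alternatives. Bmp6, a ligand that raises hepcidin in the liver, averaged 3.56 ± 0.45 CPM (SD, n = 3) in controls, 1.64 ± 0.70 in OIR mice and 3.38 ± 1.17 in OIR+32-134D mice. Its log2 fold change was -1.12 ± 0.39 for OIR against control (edgeR adjusted p = 0.133) and 1.05 ± 0.39 for OIR+32-134D against OIR (edgeR adjusted p = 1), the same directions as Tfrc. Steap4, a metalloreductase, was at 6.25, 6.94 and 1.35 CPM in control mice 1, 6 and 7. In OIR mice 3, 5 and 6 it was at 7.54, 6.99 and 31.6 CPM. OIR mouse 5 thus exceeded control mouse 6 by little, and OIR mouse 6 lay far above the other OIR mice. The log2 fold change of Steap4 was 1.65 ± 1.15 for OIR against control (edgeR adjusted p = 0.414). Leaving out 1 mouse brought it as low as 0.57.

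Slc22a17, a receptor for the siderophore carrier lipocalin 2, was at 349 to 431 CPM in controls, 171 to 199 CPM in OIR mice and 146 to 266 CPM in OIR+32-134D mice, both below all controls. Its log2 fold change was -1.005 ± 0.21 (SE) for OIR against control (edgeR adjusted p = 0.0599) and -0.78 ± 0.21 for OIR+32-134D against control (edgeR adjusted p = 0.142). In OIR+32-134D mouse 2 it was at 146 CPM, against 250 and 266 CPM in mice 5 and 10. Leaving out 1 mouse gave -0.94 to -0.55 for OIR+32-134D against control. In OIR against control it was called by DESeq2, by edgeR on the 2 groups, with no filter on low counts, by limma-voom and without OIR+32-134D mouse 2, and in OIR+32-134D against control by limma-voom alone (adjusted p = 0.0355, and up to 0.323 under the other alternatives). Steap3, the endosomal reductase that prepares iron for DMT1, differed by -0.73 ± 0.37 in that second comparison, or by -0.38 ± 0.24 without OIR+32-134D mouse 2, and Mafk, a small MAF partner of BACH1, by 0.57 ± 0.19 (edgeR adjusted p = 0.317, 0.493 and 0.192). Hebp1, a heme-binding protein, differed by -0.49 ± 0.42 for OIR+32-134D against OIR (edgeR adjusted p = 1).

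**Figure D5:**
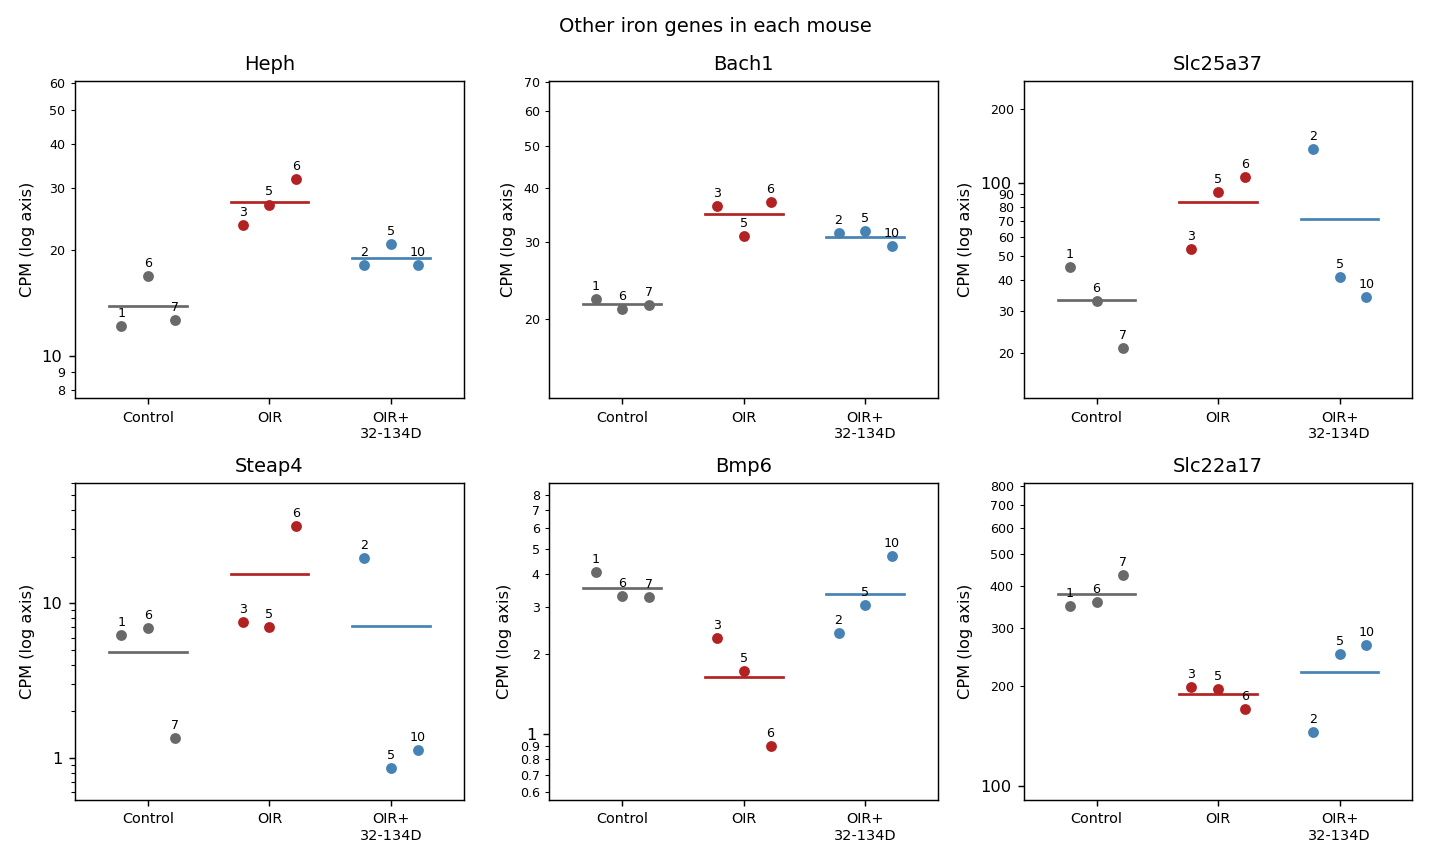
Panels plot CPM (log axis) of 6 genes of the wider iron list in each mouse; numbers are mice and bars are means of 3 mice. Heph was highest in every OIR mouse (23.6 to 31.9 CPM) with OIR+32-134D mice between them and the controls, Bach1 was higher in both OIR groups, and Bmp6 was lowest in the OIR mice.

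No group of this wider list other than those of Heph and Bach1 held a gene that passed edgeR on all mice. Of 8 heme synthesis genes none passed in any comparison, and their log2 fold changes for OIR against control ran from -0.35 to 0.23. Of 12 tested genes of mitochondrial iron and iron-sulfur assembly, 10 had a negative log2 fold change for OIR against control (median -0.13) and none passed. Of 5 regulators of Hmox1 transcription, 3 were higher without overlap in OIR than in control and 1 passed, Bach1, where 15.9% and 0.941% of all genes did. Of 5 tested genes of the hepcidin axis, 2 were higher and 2 lower at an unadjusted p below 0.05 for OIR against control (11.1% and 12.7% of all genes). Their log2 fold changes ran from -1.76 to 0.93, and the lowest, that of Hamp, rests on 1 to 30 counts per library. Of 12 tested genes of iron import and reduction 3 were lower at that unadjusted threshold (12.7% of all genes), with a range from -1.05 to 1.86. The highest value there was that of Lcn2, whose groups overlapped. Lcn2 was at 79.2, 73.6 and 16.5 CPM in control mice 1, 6 and 7. In OIR mice 3, 5 and 6 it was at 55.4, 99.1 and 461 CPM. Of 10 genes of heme transport and scavenging 0 passed the unadjusted threshold, with a range from -0.25 to 2.09. The highest of these, that of Cd163, rests on 0 to 69 counts per library. Of 6 genes of iron sensing and ferritin turnover none passed at an adjusted p below 0.05 in edgeR. At an unadjusted p below 0.05, 2 were higher in OIR than in control (11.1% of all genes). In OIR+32-134D against control 2 were higher as well (10% of all genes). Ireb2, which encodes IRP2 and is named here after its values were seen, was at 65.6 to 69.8 CPM in controls, 74.3 to 95.5 CPM in OIR mice and 87.3 to 97.4 CPM in OIR+32-134D mice. Ireb2 had a log2 fold change of 0.38 ± 0.11 (SE) and 0.44 ± 0.11 in the 2 comparisons with control (edgeR adjusted p = 0.0938 and 0.126). Nfe2l2, which encodes the activator NRF2 and was likewise named after its values were seen, was at 23.7 to 37.3 CPM in controls, 39.4 to 53.4 CPM in OIR mice and 66.7, 34.7 and 31.3 CPM in OIR+32-134D mice 2, 5 and 10, and its log2 fold change for OIR against control was 0.66 ± 0.30 (edgeR adjusted p = 0.219).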

How the data were processed

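Gene counts of neurosensory retina from 9 mice in 3 groups of 3 were used as the authors deposited them: 1 table of whole-number read counts per gene, not normalized, with gene positions and lengths. The submitters' processing notes name CASAVA and HISAT. The counter, its strand setting and the annotation version are not given in the sources used here. Positions of 98.33% of shared gene IDs equalled those of GENCODE M21 on GRCm38, which was used for the UTR search. The study calls the samples independent isolations from separate mice. Groups follow the labels.

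Counts were fitted in edgeR 4.0.16 (quasi-likelihood test, TMM scaling, filterByExpr by group, all 9 mice in 1 fit) with Benjamini-Hochberg adjustment over 17540 genes and a threshold of 0.05. CPM used TMM library sizes, and RPKM divided CPM by the deposited gene length. The SE is the log2 fold change divided by the square root of F. log2 CPM had a prior count of 2. Alternatives were DESeq2 1.42.0, edgeR on 2 groups, limma 3.58.1 (voom with sample weights), total-count scaling, crystallins left out, no filter, sex as a covariate, and each mouse left out. Scripts were tested on simulated data.

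The 10 genes, the wider iron list and the marker lists were chosen with earlier results of these data known. Genes of the wider list were named if called in any comparison, or if among the 3 largest differences without overlap at a mean log2 CPM of at least 1. The 5 nearest genes were named for members whose centred SD exceeded 0.3.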

Additional observations from a re-analysis of the deposited data

How the results depend on the processing

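The counts of genes called in OIR against control depended on the fit. Of the 10 genes 0 were called by edgeR on all mice, 5 by DESeq2 on the 2 groups, 3 by edgeR on the 2 groups, 1 with no filter on low counts and 2 by limma-voom, and leaving out 1 mouse gave 0 to 4, the 4 without OIR+32-134D mouse 2. Of the wider list 2 were called by edgeR on all mice, 9 by DESeq2, 5 by edgeR on the 2 groups, 0 with total-count scaling, 4 with no filter, 8 by limma-voom and 0 with sex as a covariate, and leaving out 1 mouse gave 0 to 8, again highest without OIR+32-134D mouse 2. The shares of all genes called were 0.941%, 16.2%, 10.3%, 0.211%, 1.75%, 13.1% and 0% in that order, and 12.5% without that mouse. In OIR+32-134D against control, DESeq2 called 2 and limma-voom 6 of the wider list, beside 2.38% and 5.28% of all genes, where edgeR called 0. In OIR+32-134D against OIR no setting called a gene of either list. The cause of these differences was not tested.

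Of 480 log2 fold changes of the 10 genes under 16 settings, 444 kept their direction and side of the threshold, 15 passed it newly and 21 changed sign, none of them a called value. In OIR+32-134D against control, Blvrb became -0.25 with limma-voom. Fth1 became -0.0028 with DESeq2, -0.039 with total-count scaling and -0.0045 with the sex covariate. Ftl1 became -0.051 with total-count scaling, -0.26 with limma-voom and -0.032 with the sex covariate, and Trf -0.013 with the sex covariate. Leaving out 1 mouse gave, in the same comparison, -0.24 to 3.64 for Hmox1, -0.25 to 0.70 for Blvrb, -0.15 to 0.12 for Fth1, -0.60 to 0.36 for Ftl1, -0.036 to 0.28 for Tfrc and -0.22 to 0.38 for Trf. In OIR+32-134D against OIR it gave -4.20 to 0.34 for Hmox1 and -1.32 to 0.33 for Cp. The lowest Hmox1, Blvrb, Fth1, Ftl1 and Trf values came without OIR+32-134D mouse 2.

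No paired analysis was possible because no pair of groups shares more than 1 replicate number. The groups held 3 mice each, with 1 library rich in lens RNA and sex unevenly spread. Blvrb and Slc40a1 rest on 64 to 348 and 98 to 777 counts per library. In the wider list, Bmp6, Hebp1 and Steap4 rest on 20 to 117, 22 to 132 and 14 to 703 counts per library.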
